A study of Mus musculus with 3 samples.

Results

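Cluster 7 is the larger of 2 groups of choroid plexus epithelium-like cells in a single-cell study of mouse brains with and without breast carcinoma metastases. Its members were taken as every cell that the authors' deposited per-cell table places in cluster 7, whatever its condition, which gave 498 of 12421 cells. By brain, it held 135 cells of naive 1, 62 of naive 2, 153 of metastasis 1 and 148 of metastasis 2.

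All brains came from female C57BL/6 mice aged 2 to 3 months. Naive mice carried no tumour, and the other mice had received E0771 cells, a C57BL/6 mammary carcinoma line, into the carotid artery about 2 weeks earlier. After PBS perfusion, brain tissue was dissociated with papain and passed over a Percoll gradient meant to enrich immune cells, so the cells counted here are those that came through a step not aimed at epithelium. The labels describe the material as 1 brain hemisphere. Each suspension was stained with 6 surface antibodies plus a hashing antibody unique to it, and the stained cells were run as 1 pool on the 10x Genomics 3' v2 assay. The deposited tables hold 4 hash tags, 2 per condition, whereas the design text speaks of 6 samples; a brain here means the cells given 1 hash tag. There was 1 RNA library, and no barcode occurred more than once. The design text says that each brain was stained separately, and the p-values below measure the spread between these 4 suspensions.

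The choroid plexus is a frond of vascular tissue in each ventricle, covered by a single layer of epithelial cells joined by tight junctions. This epithelium secretes cerebrospinal fluid by moving sodium, chloride, bicarbonate and water from blood to ventricle, and forms the barrier between them. It also makes carrier proteins such as transthyretin, carries folate and other solutes into the fluid, and can respond to interferons, whose target genes include antiviral proteins and MHC class I.

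The depth of cluster 7 differed between brains. Its summed unique molecular identifiers (UMIs, the count of RNA molecules) were 285975 in naive 1, 133835 in naive 2, 752972 in metastasis 1 and 1124344 in metastasis 2. The median UMIs per cell were 2054, 1988, 3149 and 4910, and the median mitochondrial share was 8.94%, 12.9%, 4.79% and 1.74% in the same order. Cells of cluster 9, the smaller choroid plexus epithelium-like group (245 cells), had medians of 4574 to 5576 UMIs and 7.08% to 8.07% mitochondrial RNA in each brain.

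The marker genes of cluster 7 matched its label. Against all cells outside clusters 7 and 9, the leading genes by log2 ratio of CPM (UMIs per 1000000 UMIs of the summed cells, with 20 CPM added to both sides) were Ttr at 7.20, Enpp2 at 6.67, 1500015O10Rik at 5.07 and Kl at 4.87. Ttr encodes transthyretin, the thyroid hormone and retinol-binding protein carrier of cerebrospinal fluid, Enpp2 encodes autotaxin, which makes lysophosphatidic acid, and Kl encodes Klotho. Sostdc1, a secreted antagonist of BMP and Wnt signals, followed at 4.50, and the prolactin receptor gene Prlr at 4.28. Because these genes defined the clustering, the ratios are a description with no test.

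Ttr was not evenly spread over the cells of cluster 7. In 314 cells it made up at least 10% of UMIs, and these are called Ttr-rich below; 184 cells lay under that share, which was chosen after the data were seen. The share is a range and not a cell type: 15 cells lay at 8% to 10% and 18 at 10% to 12%. The Ttr-rich cells made up 78.5% of cluster 7 in naive 1 (exact 95% interval 70.6% to 85.1%, covering counting error only) and 82.3% in naive 2 (70.5% to 90.8%). They were 60.1% of it in metastasis 1 (51.9% to 67.9%) and 43.9% in metastasis 2 (35.8% to 52.3%), so both metastasis brains lay below both naive brains.

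**Figure D1:**
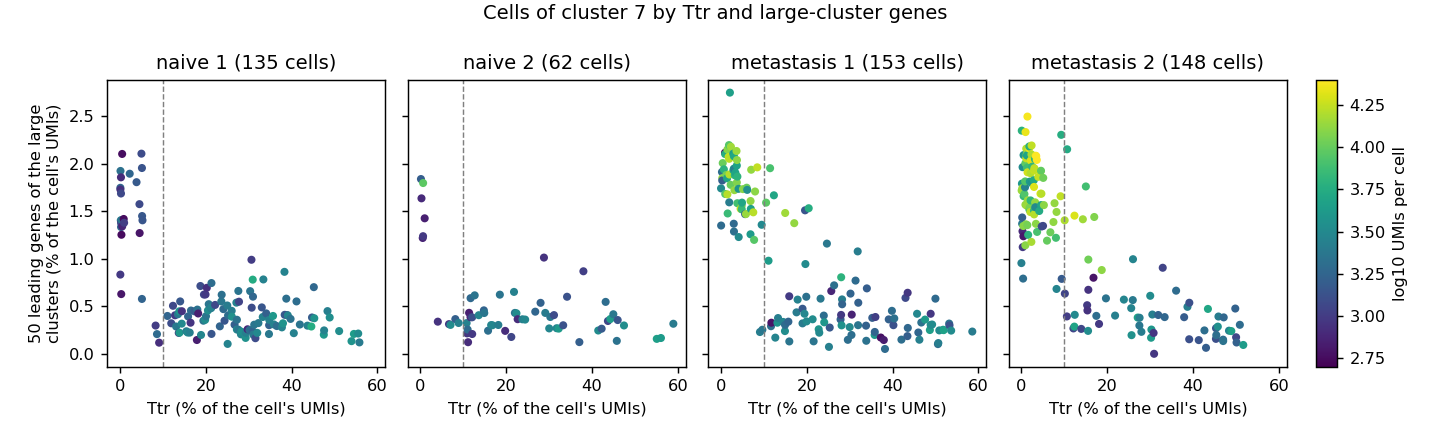
Each point is a cell of cluster 7, with the share of Ttr in its UMIs on the x axis (percent), the share of the 50 leading genes of clusters 0, 1, 3, 4 and 5 on the y axis (percent) and its depth as colour (log10 UMIs); 1 panel per brain, and the dashed line marks 10% Ttr. Left of the line, 167 of 184 cells carried at least 1% of the large-cluster genes, and 17 carried less, with 6 of these in naive 1 and 5 in naive 2.

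Most of the Ttr-poor cells went against the label. A list of 50 leading genes was drawn from clusters 0, 1, 3, 4 and 5, which hold 3946 and 4360 cells in the metastasis brains and 79 and 23 in the naive brains and are set apart from immune cells by Serpinh1, Wfdc2, Tmem267, Krt8 and Rhox5. In those clusters the list took a median of 1.91% of a cell's UMIs and ribosomal protein genes took 29.4%. The Ttr-poor cells of cluster 7 carried medians of 1.40%, 1.22%, 1.78% and 1.68% of that list in naive 1, naive 2, metastasis 1 and metastasis 2, with a ribosomal median of 25.6% over all of them. At least 1% of the list was found in 23 of 29 Ttr-poor cells of naive 1, 6 of 11 of naive 2, 59 of 61 of metastasis 1 and 79 of 83 of metastasis 2. The other 17 Ttr-poor cells lay below it, 6 of them in naive 1 and 5 in naive 2. Ttr-rich cells carried 0.378%, 0.360%, 0.336% and 0.386% of the list, and a ribosomal median of 5.83%. Ttr-poor cells were also deep in the metastasis brains, at medians of 6391 and 10650 UMIs, against 1207 and 970 in the naive brains, while the Ttr-rich medians were 2300, 2202, 2248 and 2237. Scrublet, a doublet caller, marked 29 of the 184 Ttr-poor cells and 7 of the 314 Ttr-rich cells, and 220 of all cells (1.77%). Over the 498 cells of cluster 7, the Ttr share had a Spearman correlation of -0.74 with the share of the large-cluster list and -0.83 with the ribosomal share, given as a description of cells that share libraries and depth. Each comparison between conditions is therefore given for the whole of cluster 7 and for its Ttr-rich cells.

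Markers of other brain cells were low. The median share over the Ttr-rich cells was 0 for the endothelial, mural, fibroblast, microglia and macrophage, monocyte and neutrophil, lymphocyte, neuron and glia, and erythrocyte lists, 0.0267% for the ependymal list and 0.0458% for the carcinoma list. Krt7, Cdh1 and Cldn4 of the carcinoma list were at 0 in all of cluster 7, but Krt8 of that list had 43, 8, 243 and 598 UMIs. No UMI of the carcinoma list was found in 26.9% of the cells of cluster 7, and in 14.7% of its Ttr-poor cells. For the microglia and macrophage list this was 81.9% of the cells of cluster 7, and its genes P2ry12 and Siglech were at 0. One cell stood out: in naive 1, 176 of 180 UMIs of the neutrophil gene S100a8 lay in 1 cell. That brain's summed monocyte and neutrophil list was 1406 CPM, against 91.6 to 120 CPM in the other brains.

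Gpx3, the secreted glutathione peroxidase among the cluster's 5 markers, was high in a few cells of 1 brain. In cluster 7 it was at 35.0 CPM in naive 1, 29.9 in naive 2, 9.30 in metastasis 1 and 701 in metastasis 2 (unscaled CPM of the summed cells), and 788 of its UMIs came from 22 of 148 cells of metastasis 2, with 196 in a single cell. The conditions overlapped, and edgeR's quasi-likelihood test gave a log2 change of 3.16 (SE 1.43, adjusted p = 0.111). Cluster 9 showed the same brain high, at 180, 19.7, 32.7 and 1646 CPM, where the 35 UMIs of naive 1 all came from 1 cell. In cluster 2, an immune cluster that should lack the gene, 1.41% of the cells of metastasis 2 had a Gpx3 UMI (median 1466 UMIs per cell), against 14.9% in cluster 7 (median 4910).

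Cluster 7 held a smaller share of the cells of metastasis brains. It made up 23.6% of the cells of naive 1 and 19.7% of naive 2, but 2.85% of metastasis 1 and 2.40% of metastasis 2. The means were 21.6% ± 2.77 and 2.63% ± 0.323 (SD, n = 2 each), a difference of -19.0 percentage points with an exact permutation p of 0.333, two-sided, which is the smallest that 2 brains against 2 can give. The denominators differed, with 572, 315, 5360 and 6174 cells. Among cells outside clusters 0, 1, 3, 4 and 5, cluster 7 was 27.4%, 21.2%, 10.8% and 8.16%, again without overlap. Among the cells of clusters 7 and 9 together it was 77.1%, 63.3%, 61.2% and 67.3%, and there the conditions overlapped (exact permutation p = 0.667). The Ttr-rich cells alone were 60.6% and 52.0% of clusters 7 and 9 in the naive brains and 36.8% and 29.5% in the metastasis brains.

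Cluster 7 and cluster 9 shared their leading choroid plexus genes and differed in level for many others. Of 1357 genes that reached a mean of 100 unscaled CPM in either cluster, 523 were higher in cluster 7 than in cluster 9 in all 4 brains and 172 were lower. At least 2-fold differences in all 4 brains were found for 28 genes higher in cluster 7 and for 1 that was lower, Kcnj13, which encodes the Kir7.1 potassium channel. With the Ttr-rich cells in place of the whole cluster, no gene differed at least 2-fold in all 4 brains in either direction. These counts are a description with no test, because the same RNA made the clusters.

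Kcnj13 was at 336, 276, 169 and 116 unscaled CPM in cluster 7 and at 869, 795, 624 and 523 in cluster 9. Its level in the Ttr-rich cells was 381, 327, 368 and 316 CPM, below cluster 9 in each brain. S100a10, a small calcium-binding-family protein, was at 346, 284, 817 and 1147 CPM in cluster 7 and at 56.6, 79.0, 176 and 233 in cluster 9. The actin gene Actb was at 6927, 5275, 8440 and 8239 CPM in cluster 7 and at 1265, 1807, 2895 and 2581 in cluster 9. Thus Kcnj13 was lower and S100a10 and Actb were higher in cluster 7 in every brain, naive ones included. In the Ttr-rich cells S100a10 was at 160.5, 136, 290 and 615 CPM and Actb at 2536, 3104, 4462 and 7178, above cluster 9 in each brain but by less. The mean log2 difference from cluster 9 was 2.04 for S100a10, 1.79 for Actb and -1.64 for Kcnj13 in the whole cluster. In the Ttr-rich cells it was 0.97, 0.96 and -0.95.

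By mean log2 difference, S100a10 (2.04), S100a6 (2.04), Rpgrip1 (1.98), Tmsb10 (1.90) and Actb (1.79) led the genes higher in cluster 7. With the Ttr-rich cells in place of the whole cluster, they were at 0.97, 0.99, 0.515, 0.62 and 0.96 in the same order. Rpgrip1 in the Ttr-rich cells of naive 1 was below cluster 9, at 8.03 against 10.3 CPM. Plk4 and Rbp4 stood among those genes and also on the large-cluster list. Kcnj13 (-1.64), Ldhb (-1.38), Ggh (-1.36), Rdh5 (-1.29), Rsph9 (-1.28) and Ltc4s (-1.28) led the lower genes, followed by the folate receptor gene Folr1 (-1.23), Defb11 (-1.22), Cd81 (-1.21), Ttr (-1.20), Apoe (-1.19) and Id3 (-1.19). For the Ttr-rich cells these lower genes other than Ttr lay from -0.95 (Kcnj13) to -0.51 (Apoe). Of the 15 choroid plexus epithelium genes, 7 were lower in cluster 7 in all brains and none was higher, with a median log2 difference of -0.83 for cluster 7 and -0.16 for its Ttr-rich cells. Ribosomal protein genes were higher in cluster 7 in all brains for 76 of 77, with medians of 1.07 and 0.37, beside 0.24 and 0.08 over all 1357 genes. The large-cluster list was higher for 23 of 33 genes, with medians of 1.16 and 0.29. Whether the Ttr-poor cells account for the rest of these differences was not tested.

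**Figure D2:**
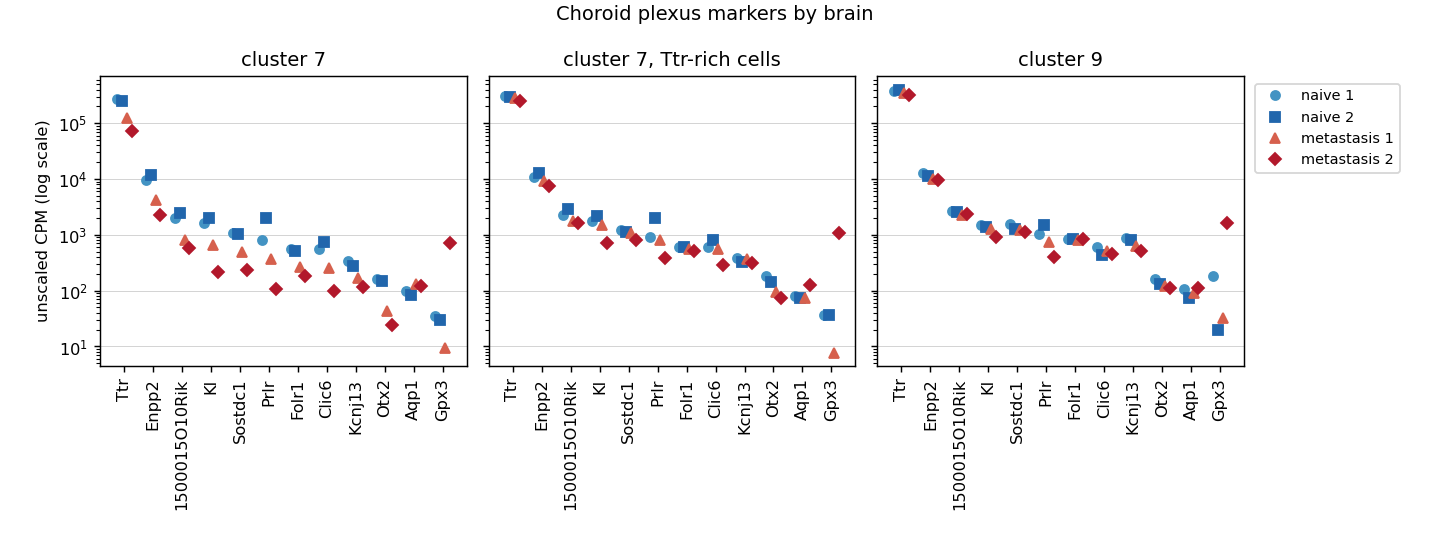
Levels of 12 choroid plexus genes (unscaled CPM of summed cells, log scale) in each of the 4 brains, for cluster 7, its Ttr-rich cells and cluster 9; each point is 1 brain. Enpp2 was at 9588, 11580, 4128 and 2233 CPM in cluster 7 and at 10760, 12680, 9388 and 7490 CPM in its Ttr-rich cells; the level of Ttr itself in the middle panel was set by the choice of those cells.

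The condition difference was tested on UMI sums per brain with edgeR's quasi-likelihood test, Benjamini-Hochberg adjustment over all genes tested and a threshold of 0.05; levels below are TMM-scaled CPM and changes are log2 metastasis over naive. In the whole of cluster 7, 5963 genes were tested: 851 were higher with metastases (14.3% of those tested) and 1008 were lower (16.9%). Among these called genes only, the naive and metastasis brains were fully separated for 851 that were higher and 1006 that were lower. A call with 2 brains per condition makes separation likely, so these counts add no support. Separation over all genes tested was not counted. Among 2977 genes tested in the Ttr-rich cells, 122 were higher (4.1%) and 11 were lower (0.369%). Leaving out naive 1 lowered the Ttr-rich counts to 20 and 1, leaving out naive 2 to 23 and 6, and leaving out metastasis 2 to 38 and 6, while leaving out metastasis 1 raised them to 283 and 112. In whole cluster 7, the lower count fell to 611 without naive 1 and to 536 without metastasis 2.

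Choroid plexus identity genes were lower in whole cluster 7 with metastases and mostly did not pass the test in its Ttr-rich cells. Of 15 genes on the choroid plexus list, 13 fell, beside 16.9% of all genes tested, and none rose. The median was -1.88 beside 0.11 over all genes tested. Enpp2 was at 10640, 12410, 3841 and 2018 CPM, a fall of 1.98 (SE 0.299, adjusted p = 0.00278). Kl was at 1777, 2162, 604 and 198 CPM, a fall of 2.30 (SE 0.407, adjusted p = 0.00386). Naive brains were high and metastasis brains low for both, without overlap. The Ttr-rich cells had Enpp2 at 10710, 12910, 9358 and 7418 CPM (-0.49, adjusted p = 0.398) and Kl at 1789, 2217, 1520 and 710 CPM (-0.84, adjusted p = 0.13). There 1 of 14 tested genes, Prlr, fell, beside 0.369% of all genes tested, with a median of -0.53 beside 0.02 over all genes. Ttr itself chose these cells, and its level in them is no result. It is also 1 of the 14 genes, and cells in which other list genes fell along with Ttr were left out. The smaller changes in these cells therefore do not show that the list was unchanged.

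Transport and secretion genes followed the same course. In whole cluster 7, 15 of 21 tested genes for ion and water transport fell (median -1.51), beside 16.9% of all genes tested, and none rose. Slc4a10, a sodium-bicarbonate transporter of this epithelium, was at 644, 793, 196 and 76.4 CPM, a fall of 2.41 (SE 0.371, adjusted p = 0.00289). Slc12a2, the NKCC1 cotransporter, fell by 1.81 (adjusted p = 0.00276), and Atp1b1, a subunit of the sodium pump, fell by 1.92 (adjusted p = 0.00276). Aqp1, the water channel, was at 109, 88.1, 121 and 109 CPM, with a change of 0.19 (SE 0.28, adjusted p = 0.627) and overlapping conditions. It was not particular to these cells, with 108, 117, 130 and 133 unscaled CPM in clusters 0, 1, 3, 4 and 5. None of 19 tested transport genes passed the threshold in the Ttr-rich cells (median -0.34), with Slc4a10 at -0.79 (adjusted p = 0.129), Slc12a2 at -0.33 (adjusted p = 0.558) and Atp1b1 at -0.72 (adjusted p = 0.134). Over all genes tested in those cells, 0.369% fell. A count of 0 of 19 is near that share and does not show that these genes were unchanged.

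Of 17 secreted and carrier protein genes, 12 fell in whole cluster 7, beside 16.9% of all genes tested, and 1, Rbp4 of the large-cluster list, rose (median -1.42). None of 16 passed in the Ttr-rich cells (median -0.19), where 4.1% of all genes tested rose and 0.369% fell. Clu, which encodes clusterin, fell by 1.17 (adjusted p = 0.00386) in the whole cluster and changed by -0.10 (adjusted p = 0.893) in the Ttr-rich cells. Igfbp2, an insulin-like growth factor binding protein, fell by 1.55 and changed by -0.20 (adjusted p = 0.751). Among 13 solute and vitamin transport genes, 8 fell and 1 rose, beside 16.9% and 14.3% of all genes tested, and none of 10 passed in the Ttr-rich cells. With the low shares in the Ttr-rich cells, 0 of 16 and 0 of 10 do not show that these genes were unchanged. Folr1 fell by 1.54 (adjusted p = 0.00299) in the whole cluster, at 609, 561, 242 and 163 CPM. In the Ttr-rich cells its levels were 615, 628, 556 and 509 CPM (-0.22, SE 0.278, adjusted p = 0.72).

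Of 11 tested genes of junctions and epithelial structure, 5 fell in whole cluster 7 and 2, Krt8 and Msn, rose (median -1.41). Over all genes tested, 16.9% fell and 14.3% rose. In the Ttr-rich cells 1 of 8, Krt8, rose (1.45, adjusted p = 0.0428) and none fell (median -0.25). Over all genes tested in the Ttr-rich cells, 4.1% rose and 0.369% fell, so few calls are likely there for any short list. Krt8, a keratin, is also on the large-cluster list. Cldn1, a claudin of the epithelial tight junction, was at 140, 104, 25.9 and 18.5 CPM in the whole cluster, a fall of 2.52 (SE 0.348, adjusted p = 0.00276). It changed by -0.74 in the Ttr-rich cells (adjusted p = 0.261). All 4 tested genes of regional patterning fell in the whole cluster (median -2.11), and none of 3 passed in the Ttr-rich cells (median -0.69). Otx2, the homeodomain factor that maintains this epithelium, was at 178, 160, 40.8 and 21.7 CPM, a fall of 2.50 (adjusted p = 0.00276), against -1.02 (adjusted p = 0.0944) in the Ttr-rich cells. Of 12 tested genes of the mitochondrial genome, 11 fell in the whole cluster (median -1.95) and 1, mt-Nd4l, in the Ttr-rich cells (-1.21, adjusted p = 0.0428).

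The share of large-cluster genes moved with these changes. It was 0.504%, 0.497%, 1.40% and 1.58% of the summed UMIs of cluster 7, and 44 of the 50 genes rose with a median of 1.64. Ribosomal protein genes summed to 88290, 78520, 200300 and 234500 unscaled CPM, and 72 of 87 rose while 2 fell. Over all genes tested in the whole cluster, 14.3% rose and 16.9% fell, with a median of 0.11. In the Ttr-rich cells the list's share was 0.375%, 0.358%, 0.645% and 0.799%, with 18 of 40 genes higher (median 1.46), and 17 of 80 ribosomal genes were higher (median 0.76). Over all genes tested in those cells, 4.1% rose, with a median of 0.02. The list and the Ttr share were both chosen after the data were seen, and the part of these cells in the condition differences was not tested.

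A Ttr share of at least 20% left 219 cells, and 1454 genes could be tested in them. In these cells the large-cluster list had 0 of 15 tested genes past the threshold (median 0.18), and 6 genes rose (0.413%) while 0 fell (0%); 89 genes had an unadjusted p below 0.05 in either direction. The 6 were Ifi27l2a (2.17), Ly6e (1.88), Ifitm3 (1.72), Lgals3bp (1.62), Bst2 (1.58) and Egr1 (1.07), and 4 of them are on the type I interferon list, of which 6 genes were tested. DESeq2 on the same sums called 1 gene, Ifitm3, higher and 0 lower. Choroid plexus genes in these cells had a median of -0.04 with 0 of 14 past the threshold. Ttr is among the 14 and chose the cells, and cells in which other list genes fell along with Ttr were left out. The count and median are therefore no test of such a fall.

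**Figure D3:**
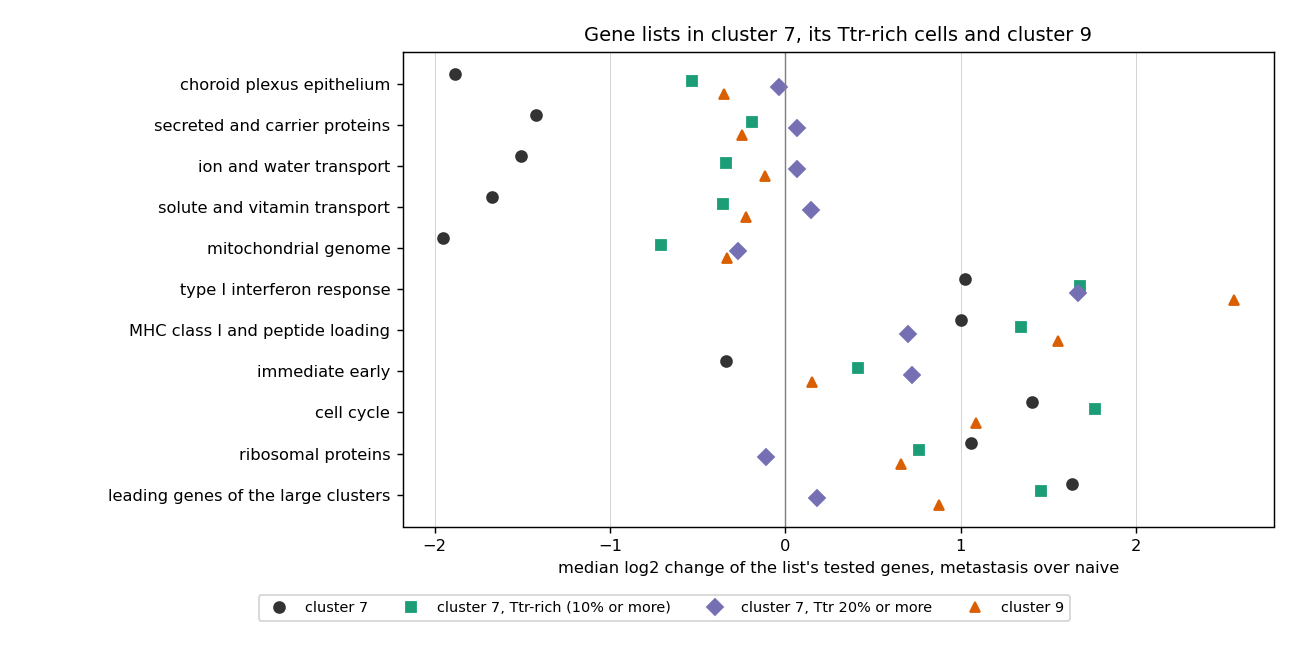
Median log2 change (metastasis over naive) of the tested genes of 11 lists, on the x axis, for cluster 7, its Ttr-rich cells, its cells with at least 20% Ttr and cluster 9. Choroid plexus and transport lists lay near -1.5 to -1.9 in whole cluster 7 and near 0 at 20% Ttr, while the type I interferon list lay at 1.67 there and at 1.68 in the Ttr-rich cells. Ttr, which chose the cells of both restricted sets, is on the choroid plexus list.

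Interferon-stimulated genes were higher with metastases in the Ttr-rich cells of cluster 7. Of 24 genes on the type I interferon list, 11 passed the filter on low counts and 6 of them rose (Isg15, Ifit1, Ifit3, Bst2, Ifitm3 and Ifi27l2a), beside 4.1% of all genes tested. The median was 1.68 beside 0.02 over all genes tested. Ifit1, with 5 and 0 UMIs in the naive brains, and Ifit3, with 2 and 0, passed the filter only through the metastasis brains. The count and the median rest in part on these genes. In the whole of cluster 7, 2 of 13 tested genes rose, Ifitm3 and Bst2, a share near the 14.3% of all genes tested. The median of the list there was 1.02 beside 0.11. In cluster 9, 10 of 13 rose, beside 3.83% of all genes tested, with a median of 2.56. The number of interferon genes called in the Ttr-rich cells was 5, 1, 6 and 5 without naive 1, naive 2, metastasis 1 and metastasis 2, and only Ifit1 was called without naive 2. Among cells with under 1% of the large-cluster list, 0 of 9 tested interferon genes passed in edgeR, with a median of 2.01 beside 0.01 over all genes; there Ifitm3 was at 2.01 (adjusted p = 0.0503), Ifit1 at 3.93 (adjusted p = 0.0503), Ifi27l2a at 2.49 (adjusted p = 0.0608) and Bst2 at 1.68 (adjusted p = 0.0608). DESeq2 called Ifitm3 and Ifi27l2a in those cells. No gene of the interferon list is on the large-cluster list, but that list was ranked against immune cells. Genes high in immune cells could hardly enter it, so their absence tests nothing.

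Ifitm3, a membrane protein that restricts virus entry, was at 371, 231, 1072 and 1267 CPM in the Ttr-rich cells, a rise of 1.90 (SE 0.306, adjusted p = 0.00272). Bst2, the tetherin gene, was at 327, 240, 845 and 897 CPM, a rise of 1.58 (SE 0.297, adjusted p = 0.00317). Both metastasis brains were above both naive brains for each gene. In the whole cluster the rise was 1.34 for Ifitm3 (667, 264, 1028 and 1440 CPM, adjusted p = 0.0145) and 1.02 for Bst2 (578, 312, 843 and 1025 CPM, adjusted p = 0.0171). These genes were also high in the large clusters of the metastasis brains, with Ifitm3 at 1350 and 1680 and Bst2 at 1070 and 1200 unscaled CPM.

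Isg15, a ubiquitin-like modifier, was at 43.9, 9.24, 123 and 148 CPM in the Ttr-rich cells, a rise of 2.03 (SE 0.456, adjusted p = 0.0114), from 11, 1, 32 and 34 UMIs. Ifi27l2a was at 200, 55.4, 436 and 653 CPM, a rise of 1.90 (SE 0.367, adjusted p = 0.00388). Naive 2 was the lowest brain for both, and the conditions did not overlap. Ifit1, which binds viral RNA, had 5, 0, 55 and 17 UMIs, a ratio of summed CPM of 10.7 (exact 95% counting interval 4.36 to 33.8; adjusted p = 0.00317). Its relative Ifit3 had 2, 0, 11 and 13 UMIs, a ratio of 8.88 (2.20 to 77.5; adjusted p = 0.0428). In the large clusters of the metastasis brains, Isg15 was at 139 and 175 unscaled CPM, not below its level in the Ttr-rich cells. Ifi27l2a was there at 15.8 and 82.4, Ifit1 at 24.6 and 25.6 and Ifit3 at 2.47 and 3.65 unscaled CPM, below the levels of the Ttr-rich cells, where Ifit1 was at 212 and 74.0 and Ifit3 at 42.4 and 56.6 TMM-scaled CPM. In immune cluster 2, Isg15 was at 1240 and 1170, and Ifi27l2a, Ifit1 and Ifit3 were at 1710 and 1580, 241 and 195, and 220 and 221 unscaled CPM.

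**Figure D4:**
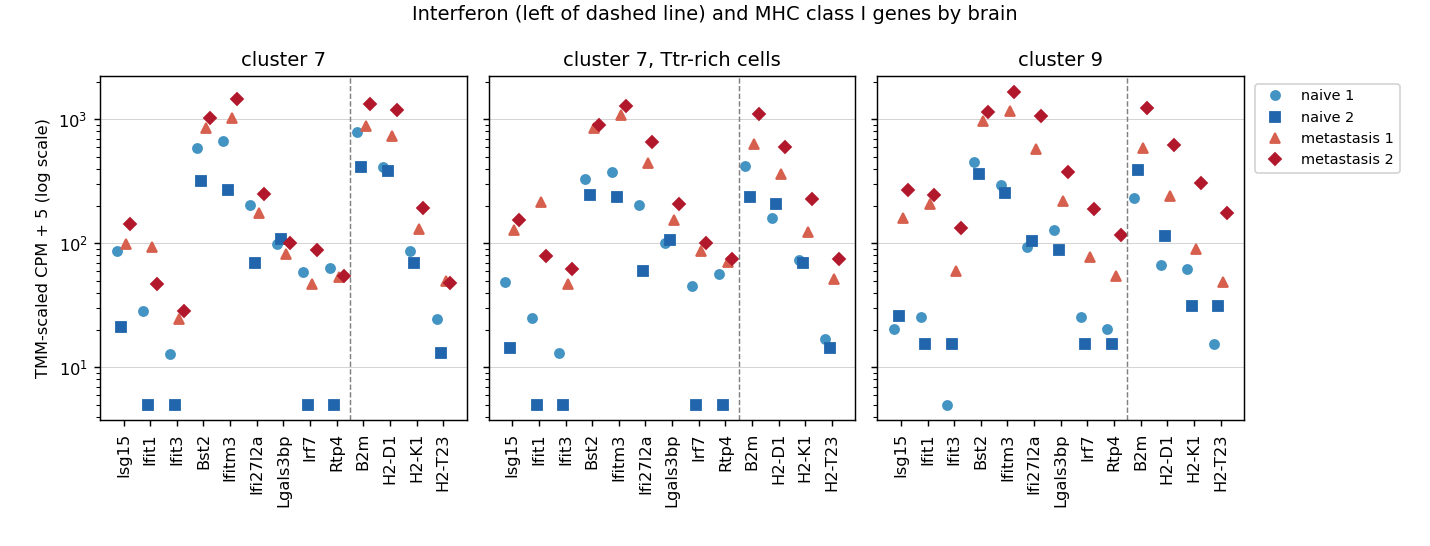
Levels of 9 interferon-stimulated genes and 4 MHC class I genes (TMM-scaled CPM plus 5, log scale) in each of the 4 brains for cluster 7, its Ttr-rich cells and cluster 9; each point is 1 brain. In the middle panel both metastasis brains lie above both naive brains for Isg15, Ifit1, Ifit3, Bst2, Ifitm3 and Ifi27l2a.

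MHC class I genes rose in part. Of 8 tested genes for MHC class I and peptide loading, 3 rose in the Ttr-rich cells (median 1.34), beside 4.1% of all genes tested. In the whole cluster 4 of 11 rose (median 1.00), beside 14.3%, and 5 of 9 rose in cluster 9 (median 1.56), beside 3.83%. At 20% Ttr, none of 6 passed (median 0.70), with B2m at 0.89 (adjusted p = 0.052) and H2-D1 at 0.42 (adjusted p = 0.839), and none of 6 passed among cells with under 1% of the large-cluster list (median 0.87). B2m, the shared light chain, was at 419, 231, 633 and 1106 CPM in the Ttr-rich cells, a rise of 1.35 (SE 0.327, adjusted p = 0.0173). H2-D1, a classical heavy chain, was at 156, 203, 355 and 592 CPM, a rise of 1.43 (SE 0.329, adjusted p = 0.0122). H2-T23, which encodes Qa-1, had 3, 1, 12 and 16 UMIs, a ratio of 5.18 (1.81 to 20.3; adjusted p = 0.0479). Metastasis brains were the higher ones for all of these genes. H2-T23 passed the filter on low counts only through the metastasis brains, so its place among the 3 rests in part on that filter. H2-K1 changed by 1.33 (adjusted p = 0.0533) and Psmb8, an immunoproteasome subunit, by 1.51 (adjusted p = 0.0726). B2m and H2-D1 were at 1430 and 1570 and at 1430 and 1740 unscaled CPM in the large clusters of the metastasis brains.

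The promoters of interferon-stimulated genes carry a short element bound by interferon-activated factors. To show it in the genes that moved, 150 bases are printed for 5 of the genes that rose in the Ttr-rich cells, from 180 to 31 bases before the start site, from RefSeq promoters of GRCm38.p6. The searched motif was GAAANNGAAA on either strand, read as TTTCNNTTTC on the other, and capitals mark its matches, which overlap in Isg15 and Bst2. The windows are chr4:156200849-156200998 (minus strand) for Isg15, chr19:34640709-34640858 (plus) for Ifit1, chr19:34583349-34583498 (plus) for Ifit3, chr8:71537503-71537652 (minus) for Bst2 and chr2:122147507-122147656 (plus) for B2m.
Isg15: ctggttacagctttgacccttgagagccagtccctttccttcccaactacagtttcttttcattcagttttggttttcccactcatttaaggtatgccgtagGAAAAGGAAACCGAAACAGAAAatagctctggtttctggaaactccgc
Ifit1: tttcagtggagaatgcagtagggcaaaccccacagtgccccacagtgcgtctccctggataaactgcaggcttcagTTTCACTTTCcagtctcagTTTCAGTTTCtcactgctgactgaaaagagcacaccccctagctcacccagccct
Ifit3: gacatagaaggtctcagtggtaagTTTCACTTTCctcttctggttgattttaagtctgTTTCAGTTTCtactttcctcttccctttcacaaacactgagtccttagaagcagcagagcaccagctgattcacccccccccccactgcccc
Bst2: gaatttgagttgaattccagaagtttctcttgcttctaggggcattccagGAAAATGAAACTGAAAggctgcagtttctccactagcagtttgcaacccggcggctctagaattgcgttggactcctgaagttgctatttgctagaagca
B2m: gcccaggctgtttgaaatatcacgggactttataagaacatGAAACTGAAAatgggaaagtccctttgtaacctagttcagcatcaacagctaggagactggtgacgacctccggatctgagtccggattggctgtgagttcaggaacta

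The motif occurred in 1131 of 32851 promoter windows of 300 bases (3.44%), from 250 before to 50 after the start. Of the 6 interferon genes that rose in the Ttr-rich cells, 5 had a promoter in the table and 5 of these held the motif, at 2 and 19 bases after the start in Ifitm3. Of 5 tested interferon genes that did not pass, 3 were in the table and 0 held it. Among MHC class I genes, 2 of the 3 that rose and 1 of the 5 that did not pass held it. A match is a description of the letters in the window and no evidence of binding.

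Few genes fell in the Ttr-rich cells, and 2 of them are receptors of this epithelium. Prlr, which takes up prolactin signals, was at 910, 2069, 822 and 387 CPM, a fall of 1.27 (SE 0.356, adjusted p = 0.0426). In whole cluster 7 it was at 916, 2138, 341 and 94.8 CPM, a fall of 2.81 (SE 0.526, adjusted p = 0.0047). Cluster 9 held 1026, 1606, 726 and 382 CPM, a fall of 1.24 (SE 0.225, adjusted p = 0.00043). Naive 2 was the highest and metastasis 2 the lowest brain in all 3 sets of cells. Htr2c, the serotonin 2C receptor gene, was at 567, 915, 413 and 283 CPM in the Ttr-rich cells, a fall of 1.05 (SE 0.307, adjusted p = 0.0479). It fell by 2.66 in the whole cluster (adjusted p = 0.00276) and by 0.88 in cluster 9 (adjusted p = 0.0113). At 20% Ttr, neither passed: Prlr was at 724, 1674, 886 and 651 CPM (-0.49, adjusted p = 0.646) with overlapping conditions, and Htr2c changed by -0.48 (adjusted p = 0.719).

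Ppp1r9a, which encodes the actin-binding protein neurabin, was at 120, 120, 42.4 and 34.8 CPM in the Ttr-rich cells, a fall of 1.61 (SE 0.411, adjusted p = 0.0241). In cluster 9 its change was -0.04 (adjusted p = 0.976). The difference between the Ttr-rich cells and cluster 9 in this change was -1.62 (adjusted p = 0.413), which did not pass. Cntn1, the contactin gene, fell by 2.60 in whole cluster 7 (adjusted p = 0.00278) and by 0.84 in cluster 9 (adjusted p = 0.0261), and changed by -0.76 in the Ttr-rich cells (adjusted p = 0.146).

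Of the 12 genes with the strongest rise in whole cluster 7, 4 are on the large-cluster list: Col6a3, Hist1h2ap, Tmem267 and Ptcra. By size of change among genes of at least 100 CPM, Col6a3 (3.51), Hist1h2ap (3.05), Tmem267 (2.84), Cdk6 (2.80) and Mpp6 (2.76) came first, followed by Ptcra, AI413582, Eif4ebp1, Apex1, Sf3b4, Akr1b3 and Ahnak at 2.36 to 2.66. Hist1h2ap, a replication histone gene, was at 15.5, 24.0, 131 and 175 CPM, and Eif4ebp1, a translation regulator, at 77.6, 80.1, 335 and 612 CPM. In naive 1 and naive 2, Col6a3 had 4 and 0 UMIs, Hist1h2ap 4 and 3, Tmem267 10 and 1, and Cdk6 6 and 1. Mpp6 (2 and 4), Ptcra (4 and 2), AI413582 (7 and 1), Apex1 (7 and 2) and Sf3b4 (6 and 2) were also low there. All of these but Eif4ebp1 passed the filter on low counts only through the metastasis brains, so their place among the 12 rests in part on that filter. Within the Ttr-rich cells, Hist1h2ap (2.98, adjusted p = 0.012), Cdk6 (2.89, adjusted p = 0.0167) and Eif4ebp1 (2.38, adjusted p = 0.00317) rose, whereas Col6a3 (2.42, adjusted p = 0.0814) and Tmem267 (1.77, adjusted p = 0.0825) did not pass. Hist1h2ap and Cdk6 were tested there, too, only through the metastasis brains. Of 11 cell cycle genes tested in the whole cluster, 7 rose (median 1.41, beside 14.3% of all genes tested), and of 4 in the Ttr-rich cells, 2 rose, Top2a and Birc5 (beside 4.1%). Top2a, Birc5 and Cenpf of this list are also on the large-cluster list, whose share was higher in both metastasis brains in the same cells, and its part in these rises was not tested. The genes that fell most beside Ppp1r9a, Prlr, Htr2c, Cntn1, Cldn1 and Otx2 were Smarca2, Cul4b, Mospd1, Strip2, Rabgap1l and Enah, at -2.50 to -2.60, and none of these 6 passed in the Ttr-rich cells or cluster 9.

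Of 15 tested immediate early genes in whole cluster 7, 3 rose and 3 fell (median -0.34), shares near the 14.3% and 16.9% over all genes tested. In the Ttr-rich cells 2 of 12 rose (median 0.41), beside 4.1% of all genes. Klf2, a transcription factor gene of this list, was at 27.9, 27.7, 57.9 and 239 CPM in the Ttr-rich cells, a rise of 2.36 (SE 0.575, adjusted p = 0.0175), with metastasis 2 far above the rest. Klf2 passed the filter on low counts there only through the metastasis brains, so its place among the 2 rests in part on that filter. Junb rose by 1.32 (adjusted p = 0.0428). Egr1 fell by 1.61 in the whole cluster (365, 424, 173 and 86.8 CPM, adjusted p = 0.00573), but in the Ttr-rich cells it was at 351, 370, 401 and 335 CPM (0.04, adjusted p = 0.962), and at 20% Ttr it was among the 6 genes that rose. Klf2 was at 344 and 428 unscaled CPM in the large clusters of the metastasis brains.

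The condition effect in whole cluster 7 differed from that in cluster 9 for 369 of 5363 genes tested (6.88%), 29 more positive and 340 more negative in cluster 7, by an interaction term in edgeR with brain as a term. For comparison, cluster 9 alone had 133 higher (3.83%) and 18 lower (0.518%) of 3473 genes. Without metastasis 2 the interaction count fell to 17, and without naive 2 to 221. Of 15 choroid plexus genes, 11 had a more negative effect in cluster 7 (median difference -1.46 beside -0.12 over all genes), and of 15 type I interferon genes, 3 did: Isg15 (-2.27), Ifi27l2a (-2.43) and Lgals3bp (-1.55).

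With the Ttr-rich cells in place of the whole cluster, the effect differed from cluster 9 for 1 of 3311 genes (0.0302%), Apod, while 191 had an unadjusted p below 0.05. Apod, a lipid carrier gene, had a difference of -4.33 (adjusted p = 0.0271), and its UMIs in whole cluster 7 were 16, 8, 3 and 25 against 1, 1, 14 and 38 in cluster 9. Isg15 differed by -1.25 (2 SE on each side, -2.73 to 0.23), Ifitm3 by -0.39 (-0.98 to 0.21), Bst2 by 0.29 (-0.29 to 0.86) and Prlr by 0.05 (-0.44 to 0.55). Ifi27l2a differed by -1.05 (-1.84 to -0.26; adjusted p = 0.594). These intervals allow differences of more than 2-fold for Isg15 and Ifi27l2a, and a p that misses the threshold does not show equal effects.

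Against cluster 6, an endothelial cluster of 533 cells, the effect in whole cluster 7 differed for 195 of 6092 genes (3.2%), 93 more positive and 102 more negative in cluster 7, and in the Ttr-rich cells for 24 of 4671 (0.514%). Cluster 6 itself had 116 genes higher (2.56%) and 255 lower (5.62%) of 4539. Leaving out naive 1, naive 2 or metastasis 2 lowered the whole-cluster count to 39, 50 and 45. In the Ttr-rich cells, 6 of 16 immediate early genes differed upward from cluster 6, with Klf2 at 4.18 (SE 0.62, adjusted p = 3.82e-08) and Junb at 2.59 (SE 0.507, adjusted p = 0.000249). In cluster 6 by itself, 15 of 16 immediate early genes fell. The interferon gene Ifi27l2a also had a more positive effect in the Ttr-rich cells, by 2.46 (SE 0.46, adjusted p = 8.25e-05), as did Ly6e, by 2.83 (SE 0.528, adjusted p = 8.25e-05). In cluster 6, 1 of 18 type I interferon genes rose.

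Surface antibody tags were low on cluster 7. The mean number of CD45 tags, a pan-leukocyte antigen, was 2.83, 3.37, 1.91 and 8.86 per cell in naive 1, naive 2, metastasis 1 and metastasis 2, with a median of 1 in each brain, against means of 44.2, 176, 204 and 202 in cluster 2. For CD11b, a myeloid integrin, the means were 3.85, 2.60, 2.98 and 6.64, against 41.0, 67.0, 250 and 272. Over the 6 antibodies, exact permutation tests between conditions gave p from 0.333 to 1 (adjusted p of 1 for each), where 0.333 is the smallest possible. Exact sign-flip tests against cluster 9 over the 4 brains gave p from 0.25 to 1 (adjusted p of 1 for each), where 0.125 is the smallest possible.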

How the data were processed

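The authors deposited a matrix of UMI counts for 31053 genes in 12421 cells, counts of antibody and hash tags, and a per-cell table with clusters, hash calls, totals, a mitochondrial percent and other per-cell scores. Per the submitters' processing notes, Cell Ranger 3.0.2, Seurat 3.0.1 and mm10 were used, with their settings not given in the sources read. The deposited totals equalled the sums of the counts in all 12421 cells. The deposited percent values gave the mitochondrial shares, and the authors' scores of doublets and tag classes were not used as results.

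Counts were summed per brain over the cells of cluster 7 and tested with edgeR 4.0.16 (R 4.3.3; TMM, filterByExpr, quasi-likelihood, Benjamini-Hochberg at 0.05), with DESeq2 1.42.0 and limma-voom (limma 3.58.1) as alternatives. The interaction fits held brain as a term. Doublets were called, but not removed, with Scrublet in scanpy 1.11.5 (expected rate 8%), and Ttr, ribosomal and large-cluster shares were computed per cell. Tests of shares and tags were exact (scipy 1.17.1). The hash call in cluster 7 rested on a median of 81.36%, 60.65%, 90.41% and 98.11% of a cell's hash tags in naive 1, naive 2, metastasis 1 and metastasis 2. The median numbers of hash tags per cell were 47, 19, 63 and 194. Both naive brains thus lay below both metastasis brains, and the part of this in the condition differences was not tested. Scripts were tested on simulated data. Members and gene lists were chosen with earlier results of these data known. Named genes are the 12 largest changes in each direction among called genes of at least 100 CPM without overlap, the 8 smallest adjusted p in each direction of each interaction, and list members.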

Additional observations from a re-analysis of the deposited data

Results flagged for a closer look

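Both comparisons of the condition effect across cell groups gave differences past the threshold. The effect in whole cluster 7 differed from that in cluster 9 for 369 genes, by edgeR's interaction term. The 8 genes of smallest adjusted p with a more positive effect in cluster 7 were Tpm1 (log2 difference 2.07), Snrpa (3.01), Gapdh (1.04), Serbp1 (1.16), Bcap31 (1.37), Golt1b (2.47), Psma7 (1.11) and Rps28 (0.98). Those with a more negative effect were App (-2.06), Slc4a10 (-2.03), Kl (-1.88), Clic6 (-1.92), Atp1b1 (-1.71), Xist (-1.75), 2900040C04Rik (-1.66) and Apod (-5.51). Of these 16 genes, Apod passed with the Ttr-rich cells (-4.33, adjusted p = 0.0271). App, for example, was at -0.47 there (adjusted p = 0.892) and Gapdh at 0.66 (adjusted p = 0.629).

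Against endothelial cluster 6 the effect differed for 195 genes. More positive in cluster 7 were Klf2 (4.15), Hbegf (8.71), Slc6a6 (3.00), Cdkn1a (2.52), Ly6e (2.11), Junb (2.07), Ier3 (2.10) and Ltbp4 (7.84). More negative were Mt3 (-3.90), Rarres2 (-5.47), Calml4 (-8.84), Chchd10 (-2.48), Gm19935 (-4.07), Ccdc34 (-2.74), Rsph1 (-4.43) and Clu (-1.94). Hbegf and Ltbp4 had 0 UMIs in both naive brains in cluster 7, and Calml4 had 0 in both naive brains in cluster 6, so their fitted values depend on the prior count and are no bound. With the Ttr-rich cells, Klf2, Cdkn1a, Ly6e, Junb, Mt3, Rarres2, Calml4, Gm19935 and Ccdc34 passed, and Hbegf, Slc6a6, Ier3, Ltbp4, Chchd10, Rsph1 and Clu did not.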

How the results depend on the processing

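For whole cluster 7 (851 genes higher, 1008 lower), DESeq2 gave 432 and 323, no filter on low counts 1497 higher, equal cells per brain 520 higher, and cells thinned to 1000 UMIs 55 and 52. Cells without UMIs of other cell types' markers gave 1 and 0 of 267 genes tested (31 at unadjusted p below 0.05). That set held 27, 15, 12 and 8 cells of naive 1, naive 2, metastasis 1 and metastasis 2. Its 1 call was Bst2 of the interferon list (2.58, edgeR adjusted p = 0.0401). The 3 alternatives chosen after seeing the data gave 122 and 11 (Ttr at least 10%), 6 and 0 (Ttr at least 20%), and 0 and 0 (large-cluster list under 1%). With the list under 1%, edgeR had 95 at unadjusted p below 0.05, and DESeq2 called Ifi27l2a and Ifitm3 higher. Higher genes were 45.8% of the called in the main fit, 35.2% with limma-voom, 57.2% with DESeq2 and 64.2% with no filter. Leaving out each brain gave 644 to 1071 higher and 536 to 915 lower, 17 to 270 differences from cluster 9 (369), and 39 to 243 from cluster 6 (195); with the Ttr-rich cells these were 1 and 24. In the Ttr-rich cells (122 higher, 11 lower), leaving out each brain gave 20 to 283 and 1 to 112, DESeq2 gave 50 and 2, and no filter gave 77 higher; where a condition kept 1 brain, it was assumed to vary like the others. Among the values of single genes under alternatives, 783 stayed on the same side of the threshold, 110 stopped passing and 41 began to pass. Another 20 changed sign with a call in the main or the alternative fit. Changes of sign with no call in either fit are counted among the 783. Those 20, as log2 values at 20% Ttr, were Cldn1 0.20, Ttr 0.07, Enpp2 0.05, Folr1 0.15, Kcnj13 0.37, Sostdc1 0.22, Lgals3bp 1.62, Egr1 1.07, Fos 0.69 and mt-Co1 0.11. At 10% Ttr they were Egr1 0.04 and Fos 0.07. Under 1% of the large-cluster list they were Ttr 0.10, Folr1 0.09, Kcnj13 0.29, Sostdc1 0.04, Egr1 0.38 and Fos 0.40. Without other cells' markers they were Ttr 0.02 and Fos 0.06. As shares of all antibody tags, CD25 changed by -0.22 (0.19 as means) and CD86 by -0.31 (0.11). The cause of these changes was not tested; fewer cells and fewer genes entered each restricted set. No paired analysis was possible because the hash tags carry no pairing across conditions.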
